A study of Mus musculus with 23 samples.

Results

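Hippocampal libraries of mice that differed in how much choroid plexus messenger RNA they held were compared. The 23 libraries were divided by Ttr, the gene of transthyretin, the thyroid hormone carrier that choroid plexus epithelium secretes into the cerebrospinal fluid. The 13 libraries chosen by a Ttr level of at least 500 RPKM are called rich, and the 10 libraries below 500 RPKM are called poor. RPKM, the unit of every level below, divides a gene's reads by its length and by the depth of its library. Because a measured gene sorted the libraries, each difference between rich and poor libraries is a description and carries no test.

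The libraries carry 4 genotype labels. WT libraries number 5, and the 7 Dp16 libraries come from Dp(16)1/Yey mice, a model of Down syndrome with an extra copy of the part of chromosome 16 whose genes have human counterparts on chromosome 21. A further 6 libraries are labelled Dp16/D-KO and 5 Dp16;D-KO/K-KO. These also carry the segment, and by the title of the series Dyrk1a (D) or Dyrk1a and Kcnj6 (D and K) were normalized in them. By their labels the libraries fall into 2 batches. Batch 1 holds 10 libraries given as total RNA from mice of 2 to 3 months on C57BL/6, and batch 2 holds 13 libraries given as polyA RNA from mice on a background of over 90% C57/B6. Titles carry a letter for sex. Whether each library came from its own animal is not stated, so p-values measure the spread between these libraries.

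Choroid plexus is a sheet of secretory epithelium around vascular connective tissue that hangs into the ventricles. The plexus of the lateral ventricle attaches along the choroid fissure beside the hippocampus. Its epithelium makes cerebrospinal fluid by moving ions, bicarbonate and water from blood to ventricle, and secretes hormone carriers, growth factors and protease inhibitors. Ependyma lines the ventricle wall and carries motile cilia, and meningeal fibroblasts cover the brain surface. In bulk tissue, fewer cells of a type and less RNA per cell cannot be told apart.

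RPKM summed to between 353904 and 373054 per library. From the steps between low values, depth was estimated at 14.65 to 17.4 M reads with a median of 16.6. The dentate granule gene Prox1 (14.07 to 22.54 RPKM over the libraries) and the CA1 gene Fibcd1 (25.96 to 52.02 RPKM) were present in every library. Dyrk1a was not detectably lower in the libraries labelled Dp16/D-KO than in Dp16 (log2 difference -0.01 ± 0.04 SE, limma, adjusted p = 0.935). Nor was Kcnj6 detectably lower under the Dp16;D-KO/K-KO label (-0.06 ± 0.08, limma, adjusted p = 0.822). The library labelled WT F1 held 12.65 RPKM of the Y-linked gene Ddx3y and WT M3 held 0.01, both against the letter in the title. WT F1 is the one poor WT library and WT M3 the rich library with the least Ttr, and some results that rest on them are given without both. The library Dp16 M2 stands apart by skeletal muscle genes, described below.

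Kcne2, a potassium channel subunit of the plexus epithelium, had the largest difference after Ttr. It lies at positions 92292389 to 92298133 of chromosome 16 (mm10) inside the Dp16 segment. Promoters are shown for Kcne2 and for the bicarbonate transporter Slc4a5, next in size, and for Mfrp and Ace, whose windows hold the motif TAATCC, a sequence bound by the plexus factor OTX2. Sequences are from RefSeq (GRCm38.p6), plus strand, 250 bases up to the start site, and capitals mark the motif or its reverse complement. Where a gene had several promoter entries, an entry that holds the motif was shown if there was one. The start sites shown for Mfrp and Slc4a5 lie inside these genes, whose deposited starts are 44099722 and 83207580. The windows are chr16:92292139-92292388 for Kcne2, chr6:83237125-83237374 for Slc4a5, chr9:44101520-44101769 for Mfrp and chr11:105967698-105967947 for Ace.
Kcne2: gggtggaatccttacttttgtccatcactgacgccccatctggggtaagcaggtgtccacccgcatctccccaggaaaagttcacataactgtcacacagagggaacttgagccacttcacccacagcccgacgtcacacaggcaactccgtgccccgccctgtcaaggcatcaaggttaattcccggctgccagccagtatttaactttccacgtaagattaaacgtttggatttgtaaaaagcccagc
Slc4a5: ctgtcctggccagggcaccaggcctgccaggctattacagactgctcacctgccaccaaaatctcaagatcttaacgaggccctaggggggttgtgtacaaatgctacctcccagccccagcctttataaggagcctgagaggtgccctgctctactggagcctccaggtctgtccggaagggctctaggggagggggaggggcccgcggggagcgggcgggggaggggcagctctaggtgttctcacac
Mfrp: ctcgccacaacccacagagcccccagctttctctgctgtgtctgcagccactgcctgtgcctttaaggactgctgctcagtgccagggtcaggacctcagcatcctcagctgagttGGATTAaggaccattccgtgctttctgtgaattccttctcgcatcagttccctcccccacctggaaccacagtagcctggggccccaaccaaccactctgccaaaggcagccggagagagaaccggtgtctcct
Ace: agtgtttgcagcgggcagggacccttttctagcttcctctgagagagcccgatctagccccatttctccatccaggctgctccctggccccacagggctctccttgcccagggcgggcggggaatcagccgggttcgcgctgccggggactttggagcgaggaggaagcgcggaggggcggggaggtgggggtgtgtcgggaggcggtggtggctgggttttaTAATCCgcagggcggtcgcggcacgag
The motif begins 134 bases before the start site shown for Mfrp, on the opposite strand, and 27 bases before that shown for Ace. Over windows from 250 bases before to 50 bases after the start site, TAATCC on either strand was found at 10 of the 68 genes with a promoter entry among 86 genes that were higher in both batches (14.7%). It was found at 2199 of 27025 genes of the whole promoter table (8.14%). In both shares a gene counted if any of its promoter entries matched. The windows of Kcne2 and Slc4a5 hold no match.

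Ttr ran from 552.71 to 3760.37 RPKM in rich libraries (median 2316.86) and from 8.36 to 90.48 RPKM in poor libraries (median 37.3). No library lay between 90.48 RPKM (Dp16 M4) and 552.71 RPKM (WT M3). Just inside the threshold lay WT M3 and Dp16/D-KO F1 (585.28 RPKM), and the next library up held 1483.32 RPKM. Ttr made up 0.152% to 1.01% of all RPKM in rich libraries and 0.00226% to 0.0243% in poor ones. It therefore never reached 0 in a poor library.

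**Figure D1:**
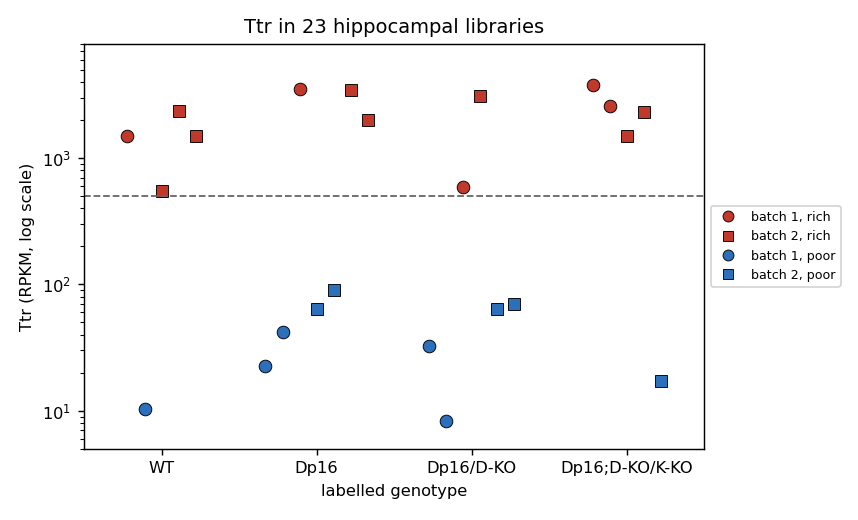
Ttr level (RPKM, log axis) of each library by labelled genotype, with red points for rich and blue points for poor libraries, circles for batch 1 and squares for batch 2. The dashed line is the 500 RPKM threshold, and the space between 90.48 and 552.71 RPKM holds no library.

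Rich libraries occurred under every label. They were 4 of 5 WT, 3 of 7 Dp16, 2 of 6 Dp16/D-KO and 4 of 5 Dp16;D-KO/K-KO libraries. By batch they were 5 of 10 in batch 1 and 8 of 13 in batch 2, and by title letter 7 of 10 F and 6 of 13 M libraries. No difference was detectable in Fisher's exact test, two-sided, by genotype (p = 0.309), batch (p = 0.685) or letter (p = 0.402), with adjusted p-values over the 3 tests of 0.602, 0.685 and 0.602. Without WT F1 and M3 the p-values were 0.205 by genotype, 1 by batch and 0.184 by letter (Fisher's exact test). Groups of this size can hide a large imbalance, and batch 2 held 6 rich F libraries against 1 poor one.

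Rich minus poor differences were taken on the log2(RPKM + 0.1) scale, with genotype and batch in a limma model, for the 13970 genes other than Ttr with a mean of at least 0.5 RPKM. Of these, 106 were at least 2-fold higher in rich libraries (0.759%) and 10 at least 2-fold lower (0.0716%). In each batch taken alone, 86 genes were at least 2-fold higher (0.616%) and 5 at least 2-fold lower (0.0358%). For 46 genes every rich library lay above every poor library (0.329%), and for none did every rich library lie below. These shares use the contrast that sorted the libraries, so they describe its extent. Of the 86 genes, 34 were on a list of choroid plexus genes, none was on a list of any other cell type or region, and 52 were on no list.

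**Figure D2:**
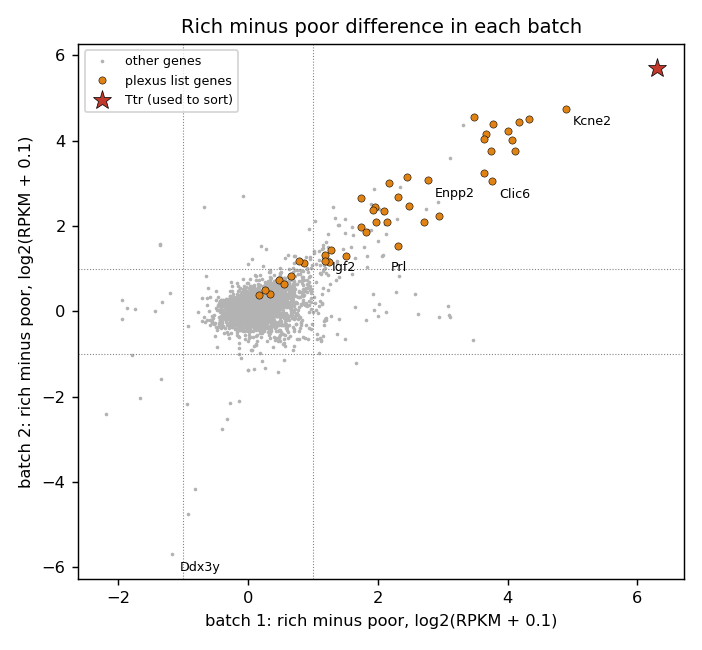
Rich minus poor difference of each gene in batch 1 (horizontal) and batch 2 (vertical), both in log2(RPKM + 0.1), with plexus list genes in orange, Ttr as a star and other genes in grey. Dotted lines mark 2-fold, and the plexus genes lie along the diagonal at upper right, where 86 genes other than Ttr pass 2-fold in both batches.

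The choroid plexus list held 44 genes, of which 42 passed the filter, and all 42 were higher in rich libraries. Their median difference was 2.24 (2.30 without WT F1 and M3) against 0.02 for all genes. At least 2-fold higher were 35, and 25 had no overlap between the classes. Slco1a5 and Lmx1a fell below the filter, with mean levels of 0.305 and 0.324 RPKM. The differences ran from 0.31 to 4.79, and the members with the small ones had sizeable levels in poor libraries too.

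The transport group, of ions, water, nutrients and organic solutes, was the largest of the plexus lists, with 16 of 17 members past the filter, a median difference of 2.35 and 10 members at least 2-fold higher. Kcne2 ran from 3.29 to 25.55 RPKM in rich libraries (median 14) and from 0.14 to 0.98 RPKM in poor ones (median 0.46), a difference of 4.79 ± 0.25 (SE). Slc4a5, an electrogenic sodium bicarbonate cotransporter, ran from 1.06 to 10.16 RPKM in rich and from 0.03 to 0.27 RPKM in poor libraries (4.38 ± 0.28). Neither gene overlapped between the classes. Kcnj13, an inward rectifier potassium channel, ran from 1.43 to 21.53 RPKM in rich and from 0.02 to 1.40 RPKM in poor libraries (4.23 ± 0.41), which leaves its classes almost touching. Folr1, the folate receptor that carries folate into the cerebrospinal fluid, ran from 4.17 to 35.81 RPKM in rich and 0.45 to 1.55 RPKM in poor libraries (4.14 ± 0.30). Aqp1, the apical water channel, ran from 1.03 to 9.02 RPKM in rich and 0.08 to 0.29 RPKM in poor libraries (4.0 ± 0.31). Both were apart in every library. Clic6, an intracellular chloride channel family member at positions 92498147 to 92541241 of chromosome 16 and the other segment gene here, ran from 5.89 to 46.36 RPKM in rich and 0.54 to 5.07 RPKM in poor libraries (3.38 ± 0.25).

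Lower in this group stood Abca4, a retinoid flippase (2.59 ± 0.21), the glucose transporter Slc2a12 (2.47 ± 0.22), the cation channel Trpv4 (2.22 ± 0.21) and the sulfate transporter Slc13a4 (1.85 ± 0.25). The chloride bicarbonate exchanger Slc4a2 differed by 0.99 ± 0.12, the carbonic anhydrase Car12 by 0.69 ± 0.12 and the sodium potassium chloride cotransporter Slc12a2 by 0.56 ± 0.08. The organic anion transporter Slc22a8 (0.38 ± 0.12), the retinol receptor Stra6 (0.36 ± 0.08) and the monoamine transporter Slc29a4 (0.31 ± 0.09) completed the group. Slc12a2 held 12.89 to 25.26 RPKM in rich and 9.21 to 16.53 RPKM in poor libraries, so the classes overlapped.

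Secreted proteins, all 10 past the filter and all at least 2-fold higher, had a median difference of 2.34. Enpp2, the enzyme autotaxin that makes lysophosphatidic acid, had the highest level of the group, with 144.18 to 747.97 RPKM in rich libraries (median 431.3) and 33.6 to 78.73 RPKM in poor ones (median 61.1). Its difference was 2.87 ± 0.21 and the classes did not overlap. The coagulation factor gene F5 went from 0.06 to 0.55 RPKM in poor to 1.60 to 10.89 RPKM in rich libraries (4.05 ± 0.25). Wfdc2, a protease inhibitor family member, held 0.77 to 9.31 RPKM in rich libraries and at most 0.37 RPKM in poor ones, 1 of which is listed at 0. 1500015O10Rik, also known as Ecrg4 and the source of the peptide augurin, held 8.52 to 53.81 RPKM in rich and 1.19 to 3.87 RPKM in poor libraries (3.49 ± 0.27). The BMP and Wnt antagonist Sostdc1 differed by 2.44 ± 0.22, the sulfatase Sulf1 by 2.25 ± 0.20 and the anti-ageing hormone gene Kl (Klotho) by 2.19 ± 0.18, each without overlap.

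Lbp, the lipopolysaccharide binding protein, differed by 1.79 ± 0.24, Igfbp2, an insulin-like growth factor binding protein, by 1.43 ± 0.23, and the growth factor gene Igf2 by 1.28 ± 0.25. Igf2 held 15.79 to 103.03 RPKM in rich and 13.71 to 37.07 RPKM in poor libraries, so its classes overlapped, as did those of Igfbp2 and Lbp. Reads of Igf2 and of its neighbour Ins2 may not be told apart.

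Receptors and other membrane proteins had a median difference of 2.47, and 7 of 8 were at least 2-fold higher. Mfrp, a membrane frizzled-related protein whose gene overlaps C1qtnf5 so that their reads may not be told apart, held 0.91 to 12.63 RPKM in rich and 0.08 to 0.28 RPKM in poor libraries (4.01 ± 0.30). Tmem72 differed by 3.80 ± 0.36 and the metalloreductase family member Steap1 by 3.76 ± 0.32. The prolactin receptor Prlr held 1.41 to 13.85 RPKM in rich and 0.43 to 1 RPKM in poor libraries (2.76 ± 0.25). The angiotensin-converting enzyme Ace differed by 2.17 ± 0.21, the retinol dehydrogenase Rdh5 by 2.01 ± 0.21 and the calmodulin-like gene Calml4 by 1.94 ± 0.30. The serotonin receptor Htr2c, which neurons also express, differed by 0.58 ± 0.09.

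Transcription factors were few. Otx2, which specifies the plexus epithelium, held 1.99 to 9.92 RPKM in rich and 0.26 to 1.95 RPKM in poor libraries (2.60 ± 0.26). The roof plate factor Msx1 held 3.97 to 10.57 RPKM in rich and 2.39 to 4.09 RPKM in poor libraries (1.23 ± 0.14), with a small overlap. Junction and keratin genes had a median difference of 1.78, with all 6 at least 2-fold higher. Cldn2, a leaky tight junction claudin, differed by 3.91 ± 0.29, the epithelial keratins Krt18 and Krt8 by 2.39 ± 0.26 and 1.42 ± 0.21, and Cldn1 by 2.14 ± 0.19. The junction protein gene Perp differed by 1.17 ± 0.13 and the protease inhibitor gene Spint2 by 1.03 ± 0.14.

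**Figure D3:**
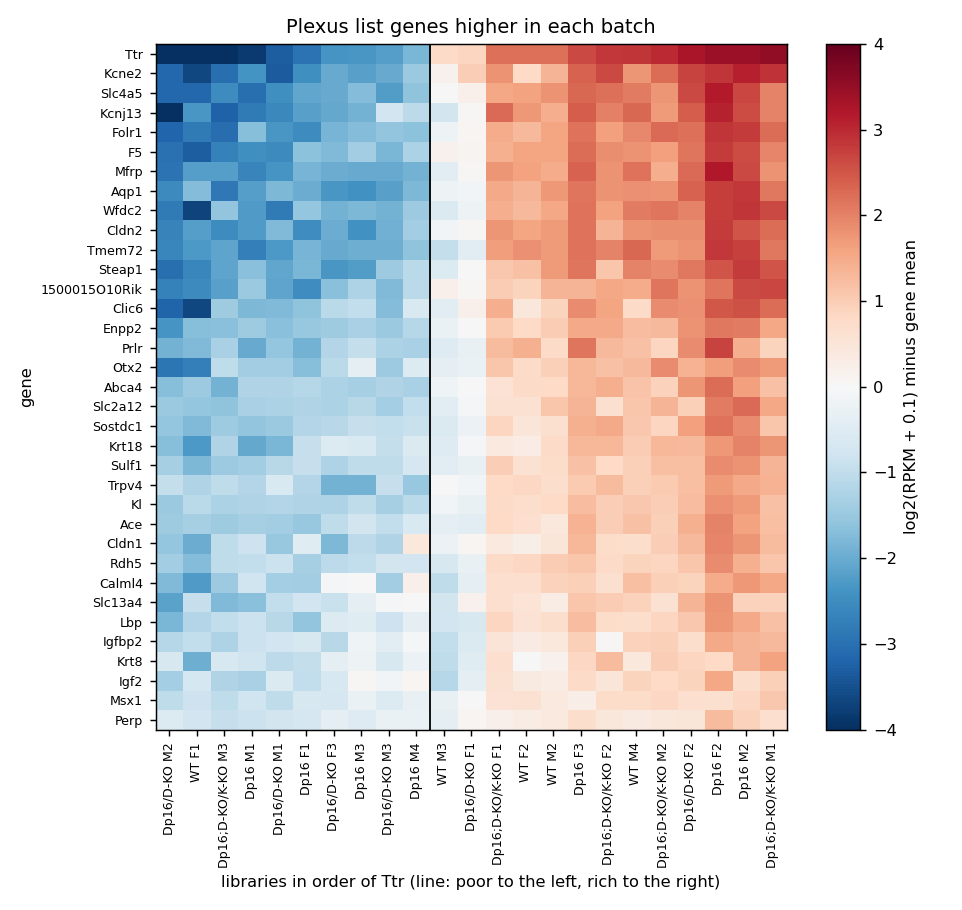
Ttr and the 34 plexus list genes at least 2-fold higher in each batch (rows), in the 23 libraries ordered by Ttr (columns), coloured by log2(RPKM + 0.1) minus the gene's mean. The black line divides the 10 poor from the 13 rich libraries, and WT M3 and Dp16/D-KO F1 take intermediate colours just right of it.

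Genes of neighbouring tissue differed far less. The ependymal cilia list had a median difference of 0.26, with 11 of 14 members positive and none at least 2-fold higher. Over all tested genes, 8223 of 13970 were positive, which is the share to set beside such counts here and below. The batches did not match, since the median was 0.68 in batch 1 but -0.02 in batch 2. Mia had the largest difference on the list (0.82 ± 0.18), and the cilia genes Tekt1 (0.58 ± 0.17), Rsph1 (0.48 ± 0.23), Tekt4 (0.39 ± 0.21) and Foxj1, the master factor of motile cilia (0.31 ± 0.17), were positive too. Tmem212 (-0.30 ± 0.23, and -0.58 in batch 2) and Ccdc153 (-0.13 ± 0.26, and -0.56 in batch 2) went the other way. Foxj1, chosen after its values were seen as were Tmem212 and Ccdc153, held 3.94 to 11.43 RPKM in rich and 3.40 to 10.6 RPKM in poor libraries, which overlap over nearly the whole range. Hydin and Dnah5 fell below the filter. The list median was 0.13 without Dp16 M2 and 0.17 without Dp16;D-KO/K-KO M3.

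All 11 meningeal fibroblast genes were higher in rich libraries, by 0.08 to 0.70 with a median of 0.43, similar in batch 1 (0.41) and batch 2 (0.43), and none reached 2-fold. The collagen gene Col1a2 differed by 0.70 ± 0.20, the leucine-rich proteoglycans Lum and Ogn by 0.67 ± 0.16 and 0.66 ± 0.27, and the amino acid transporter Slc6a20a by 0.57 ± 0.14. Lum held 1.69 to 5.78 RPKM in rich and 1.32 to 2.25 RPKM in poor libraries, with the lower rich libraries inside the poor range. Border macrophage genes had a median of 0.30 over 5 of 8 members past the filter, led by Cbr2 (0.55 ± 0.20). Erythroid genes had a median of 0.36, all 5 positive, led by Hbb-bt (0.40 ± 0.26). The erythroid median was 0.66 in batch 1, 0.23 in batch 2 and 0.28 without WT F1 and M3. Without Dp16;D-KO/K-KO M3 the fibroblast median was 0.23 and the border macrophage median 0.16. Without WT F1 and M3 the fibroblast median was 0.62 and the border macrophage median 0.38.

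Vessel wall and glial lists lay near 0. Medians were 0.05 for endothelium, 0.08 for mural cells, 0.02 for microglia, 0.07 for oligodendrocyte myelin and 0.00 for astrocytes, and no member reached 2-fold. The myelin gene Mbp, also chosen after seeing its values, held 939.27 to 1917.46 RPKM in rich and 624.04 to 1847.8 RPKM in poor libraries. Neuronal and regional lists were at -0.09 for dentate granule cells, -0.08 for CA1, -0.01 for CA2 and CA3, -0.04 for interneurons, -0.05 for cortex, 0.00 for striatum, 0.13 for thalamus and habenula, and -0.03 for neurogenic cells. Immediate early genes, which neuronal activity switches on, had a median of -0.28, or -0.20 without WT F1 and M3. All 7 were negative, against 5747 of 13970 over all genes. Among them were Fosb at -0.43 ± 0.12 and Egr1 at -0.28 ± 0.12, and all 7 overlapped between the classes.

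The striatum list held Ppp1r1b. This gene, which encodes DARPP-32, held 32.21 to 55.24 RPKM in rich libraries (median 45.8) and 25.49 to 33.86 RPKM in poor ones (median 29.1), a difference of 0.55 ± 0.10 that was 0.58 in batch 1 and 0.48 in batch 2. The striatal neuropeptide genes Penk and Tac1 differed by -0.09 ± 0.10 and -0.11 ± 0.09.

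**Figure D4:**
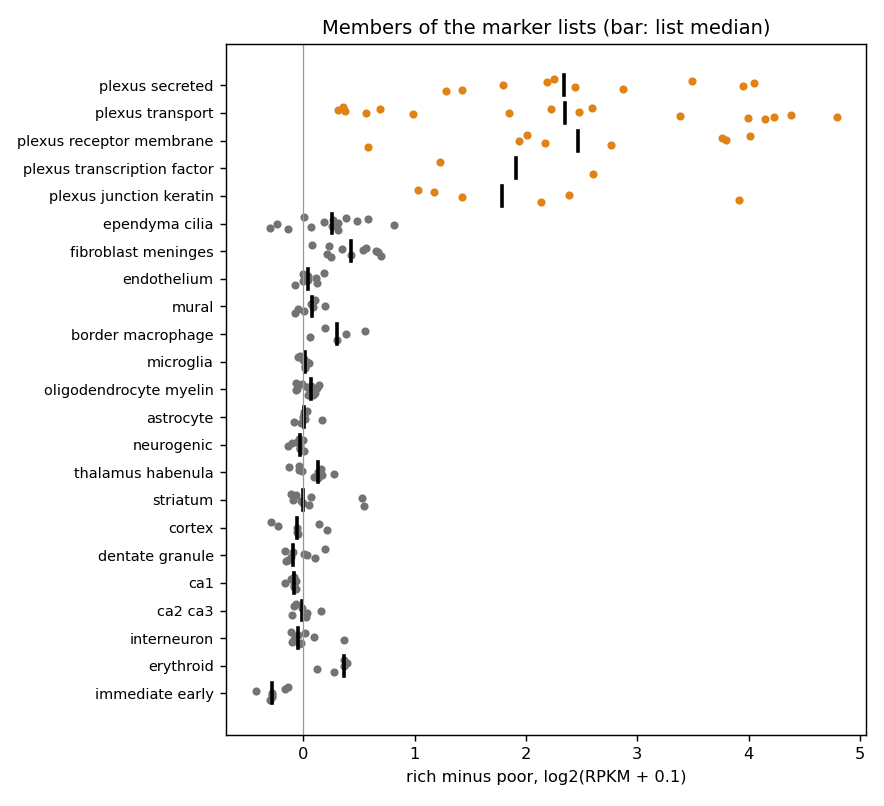
Rich minus poor difference in log2(RPKM + 0.1) of each member of the 5 plexus lists (orange) and 18 other lists (grey), with a bar at each list's median. The plexus medians lie between 1.78 and 2.47, and the other medians between -0.28 and 0.43.

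Several genes outside the lists followed the plexus. Those named in this paragraph and the next 2 were chosen after their values were seen, except Defb11, Sh3bgr, Pvalb and Zic1. The beta-defensin gene Defb11 held 0.19 to 5.02 RPKM in rich libraries, and 8 of 10 poor libraries list it at 0. Matrix genes included the short-chain collagens Col8a1 (3.28 ± 0.28) and Col8a2 (2.20 ± 0.21) and the collagen IX chain Col9a3 (1.80 ± 0.18), each with every rich library above every poor one. Col8a1 held 0.66 to 7.57 RPKM in rich and 0.11 to 0.43 RPKM in poor libraries. Others without overlap were the semaphorin gene Sema3b (2.15 ± 0.22), Wdr86 (2.26 ± 0.22), the serine protease gene Fap (2.07 ± 0.22), the cation channel gene Trpm3 (1.25 ± 0.13), the carbonic anhydrase gene Car14 (1.22 ± 0.13) and the complement regulator Cd59a (1.24 ± 0.12).

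The polarity gene Crb3 differed by 1.70 ± 0.24, the endocytic adaptor gene Epn3 by 1.61 ± 0.20, and the junction genes Cgnl1, Tjp3 and Cldn3 by 1.36 ± 0.15, 1.20 ± 0.17 and 1.08 ± 0.26. The lactate transporter Slc16a8 differed by 2.38 ± 0.27 and the leptin receptor Lepr by 1.17 ± 0.18. Ins2, the insulin gene beside Igf2, held up to 2.82 RPKM in rich libraries and is listed at 0 in 6 of 10 poor libraries. The cilium gene Drc7 differed by 1.80 ± 0.25 (2.00 in batch 1 and 1.65 in batch 2), above every member of the ependymal list. The MHC class II genes H2-Aa and H2-Ab1, of antigen-presenting cells, differed by 1.46 ± 0.30 and 0.99 ± 0.24 with overlapping ranges.

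Some differences rested on few libraries. Dp16 M2, a rich library, held 103.02 RPKM of Tnnt3, 69.13 of Ckm, 66.06 of Mylpf, 49.22 of Atp2a1 and 91.6 of Acta1, all skeletal muscle genes, while the next highest libraries held 0.22, 0.33, 0.99, 0.2 and 4.14 RPKM. Its Sh3bgr, a segment gene, was 6.97 RPKM against at most 2.67 elsewhere, and its Pvalb, which fast muscle and interneurons express, was 136 RPKM against at most 72.04. Without Dp16 M2, 92 rather than 106 genes were at least 2-fold higher. The pituitary hormone genes Prl and Lhb differed by 1.81 ± 0.68 and 1.34 ± 0.30. Prl was highest in WT F2 (3.66 RPKM) and is listed at 0 in 2 rich and 4 poor libraries. The growth hormone gene Gh, also pituitary, differed by 0.05 ± 0.76, with 0.47 in batch 1 and -0.60 in batch 2, and was highest in Dp16;D-KO/K-KO M1 (3.88 RPKM). Zic1, on the thalamus and habenula list, reached 37.37 RPKM in Dp16;D-KO/K-KO M2, with 3.34 RPKM as the lowest rich library and 14.2 RPKM as the highest poor one. The part of other tissue in these values was not tested.

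Few genes were lower in rich libraries. Of the 10 at least 2-fold lower, 4 were Y-linked, namely Ddx3y (-3.34 ± 1.22), Kdm5d (-2.77 ± 1.02), Eif2s3y (-2.44 ± 0.89) and Uty (-1.40 ± 0.57). They were lower mainly in batch 2, with Ddx3y at -5.70 there and -1.17 in batch 1. By title letter batch 2 held 2 M libraries among the rich and 4 among the poor. Those rich M libraries include WT M3, with 0.01 RPKM of Ddx3y, and WT F1, poor and in batch 1, held 12.65 RPKM. The others were predicted genes or histone genes of repeated sequence, among them LOC101055676 (-1.98 ± 0.64) and Gm13306 (-1.55 ± 0.79), whose counts depend on how reads were assigned to copies.

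Both segment genes with plexus expression were then compared between carriers of the segment (all Dp16 labels) and WT. Kcne2 and Clic6 were set against the plexus score, the mean log2(RPKM + 0.1) of 12 plexus genes outside the segment, within rich libraries. Relative to the score Kcne2 was 1.05 ± 0.31 (SD, n = 9) in carriers and 0.34 ± 0.42 (SD, n = 4) in WT, a difference of 0.71 on the log2 scale or 1.63-fold (exact permutation test, two-sided, p = 0.00699, adjusted p = 0.00699 over the 2 genes). Clic6 was 1.85 ± 0.20 in carriers and 1.15 ± 0.40 in WT, a difference of 0.70 (exact permutation test, p = 0.0028, adjusted p = 0.00559). Libraries were regrouped without regard to batch, and carriers and WT were not balanced over the batches, so results within each batch are given below. The design can reach no p below 0.0014. A ratio of 3 copies to 2 would give 0.58.

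In WT, Kcne2 was 7.54 RPKM in M2, 3.29 in M3, 10.2 in M4 and 5.07 in F2, and in carriers it ran from 5.8 to 25.55 RPKM (median 18.74). Relative to the score the WT values were 0.32, 0.83, 0.40 and -0.20 in that order, and the carriers lay from 0.61 to 1.41. Only WT M3 reached into the carrier range. Clic6 in WT was 14.53 RPKM in M2, 5.89 in M3, 13.34 in M4 and 10.89 in F2, and relative to the score 1.26, 1.65, 0.78 and 0.89. Carriers lay from 1.65 to 2.15, so that WT M3 again sat at their lower edge. Without WT M3 the differences were 0.87 for Kcne2 and 0.87 for Clic6 (exact permutation test, p = 0.00455 for each, the smallest possible).

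Within batch 1, with 1 rich WT library, the differences were 0.89 for Kcne2 and 0.78 for Clic6 (exact permutation test, p = 0.2 for each, the smallest possible). Within batch 2, with 3 WT and 5 carrier libraries, they were 0.57 (exact permutation test, p = 0.125) and 0.58 (p = 0.0357). Among 34 plexus genes set against the score, Kcne2 and Clic6 had the 2 largest carrier minus WT differences. The other 32 ran from -0.41 to 0.31 with a median of -0.02. These 32 include the 12 score genes, each set against the rest of the score. The differences of those 12 therefore cancel out by construction, which holds the median of the 32 near its centre.

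**Figure D5:**
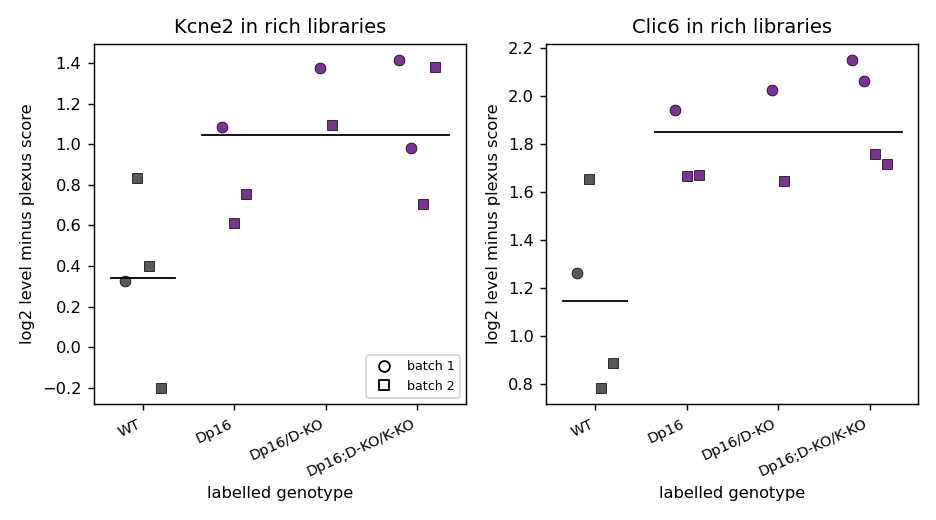
Kcne2 (left) and Clic6 (right) in the 13 rich libraries, as log2(RPKM + 0.1) minus the plexus score, by labelled genotype, with circles for batch 1 and squares for batch 2. Lines mark the means of the 4 WT and 9 carrier libraries, 0.34 and 1.05 for Kcne2 and 1.15 and 1.85 for Clic6.

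Genotype comparisons over all libraries were made with limma (batch and letter in the model, adjusted p under 0.05), first without and then with the class, rich or poor, as a covariate. Dp16 against WT gave 202 called genes without the class (1.45% of 13971 tested) and 195 with it (1.4%). Of the 202 genes, 152 were also called with the class, 50 were not, and 43 others were called only with it. Without WT F1 and M3 the count without the class was 96. Dp16/D-KO against Dp16 gave 20 genes (0.143%) and 13 with the class (0.093%), 12 of them shared. Dp16;D-KO/K-KO against Dp16 gave 5 (0.0358%) and 4 (0.0286%). Leaving out Dp16 F2, Dp16 M2 or Dp16/D-KO M3 gave 0 calls by limma in Dp16/D-KO against Dp16, with 2012, 1944 and 1605 genes at an unadjusted p under 0.05. Leaving out M1, M2 or F2 of the Dp16;D-KO/K-KO group gave 0 calls by limma against Dp16, with 1310, 1142 and 1264 such genes.

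Without the class 0 of 42 plexus list genes were called in each of the 3 comparisons. Over all tested genes the called shares were 1.45%, 0.143% and 0.0358%, so 0 of 42 lies near them. In Dp16 against WT, Kcne2 differed by -0.14 ± 1.31 (SE; limma, adjusted p = 0.978) and Clic6 by 0.66 ± 0.96 (limma, adjusted p = 0.812). With the class, Kcne2 was higher by 1.70 ± 0.33 (limma, adjusted p = 0.00787) and Clic6 by 1.97 ± 0.32 (limma, adjusted p = 0.00107). The whole plexus list moved with them, from a median of -0.02 without the class to 0.84 with it. With the class 4 of 42 plexus genes were called higher, Kcne2 and Clic6 among them, beside 1.4% of all tested genes called. Ttr itself went from -0.84 ± 1.69 to 1.51 ± 0.51 in the same fits. Among rich libraries Ttr ran from 2009.44 to 3495.35 RPKM in Dp16 and from 552.71 to 2350.49 RPKM in WT. The class does not account for such differences within it, and their part in the calls made with the class was not tested. Only 1 WT library, F1, is poor, and the model fits a single Dp16 effect over both classes. Fits without F1 are given below.

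Of the genes whose call changed with the class, Kcne2, Clic6 and 3 others moved most, all upward in Dp16. Cldn1 went from 0.60 ± 0.62 (limma, adjusted p = 0.726) to 1.43 ± 0.25 (adjusted p = 0.00191), the phospholipase gene Pla2g5 to 1.22 ± 0.29 (adjusted p = 0.0311) and the polarity gene Crb3 to 1.26 ± 0.31 (adjusted p = 0.0482). Each is a gene that was higher in rich libraries. With log2 Ttr in place of the class, Kcne2 was 0.50 (limma, adjusted p = 0.290) and Clic6 1.13 (limma, adjusted p = 5.15e-05). Leaving out WT F1 with the class in the model gave 2.00 for Kcne2 (limma, adjusted p = 0.0195) and 1.96 for Clic6 (limma, adjusted p = 0.0244). Dyrk1a differed by 0.52 ± 0.04 without and 0.53 ± 0.05 with the class (limma, adjusted p = 5.62e-08 and 1.85e-07), and Kcnj6 by 0.55 ± 0.08 and 0.50 ± 0.08 (limma, adjusted p = 0.000193 and 0.000513), so both were called with and without the class.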

How the data were processed

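The data are 23 RNA-seq libraries of mouse hippocampus. The deposited values are RPKM per gene, calculated by the authors and given to 2 decimals. Alignment used HISAT and mm10, per the submitters' processing notes. The sources used here do not state the counting tool, the strand setting or the gene lengths. Of 21785 genes, 19064 had values. The deposited comparisons of the authors were not used.

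Libraries were grouped by their labels, and batch was read from the molecule and protocol labels. Levels were put on the log2(RPKM + 0.1) scale. Genes with a mean of at least 0.5 RPKM entered limma 3.58.1 in R 4.3.3, with genotype and batch as covariates for the rich minus poor difference, and with batch and title letter for the genotype comparisons (two-sided, Benjamini-Hochberg adjustment). Both fits were tested on simulated data. The members, lists and tests were chosen with earlier results of these data known, so no list adjusted on its own is given.

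Genes named were drawn from the 15 highest and 10 lowest by difference, agreeing in both batches where enough do. These needed a mean of at least 1 RPKM. Further sources were every plexus list member, 4 members of each other list, and those said to be chosen after seeing values. Of the lowest genes and of the lists other than plexus, not every member picked is named in the text. A gene that this rule names is not reported here. Depth was estimated from 385 genes with transcripts under 1000 bases and a mean below 0.3 RPKM, of whose values 43.2% to 58.7% lay within 0.15 read of a whole number (30% by chance at a fixed depth), so counts were not recovered and no counting interval is given.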

Additional observations from a re-analysis of the deposited data

Results flagged for a closer look

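Among 21 sets of values checked for a library far from the rest, where chance alone marks about 1 in 20, 2 held one. Sh3bgr in Dp16 was 6.97 RPKM in M2, far above the other Dp16 libraries, and the same library held the skeletal muscle genes described above. Among poor libraries, Sh3bgr was 0.82 RPKM in WT F1, the single WT library there, below all the others, which carry the segment. Over all libraries Sh3bgr ran from 0.78 to 1.07 RPKM in WT and was at least 1.36 RPKM in carriers, so WT F1 lay within the WT range. The part of the composition of Dp16 M2, and that of the extra segment copy, in these values was not tested.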

How the results depend on the processing

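Results were recomputed under the alternatives of scaling, filter, pseudocount, threshold, batch and left-out libraries. A pseudocount of 1 gave 51 genes at least 2-fold higher and 3 lower and a plexus list median of 1.67. The lower genes numbered 21 at a pseudocount of 0.01, 19 with every gene above 0 kept and 22 in batch 2 alone. Leaving out 1 library at a time gave 92 to 127 higher genes, 9 to 15 lower genes and a plexus median of 2.15 to 2.49. Libraries that share a replicate label were not taken as paired, since not every such pair passed a correlation of 0.1 (14 of 26 did, mean 0.114, against 24 of 74 pairs with other labels, mean -0.04). With a replicate block there were 93 higher genes, 10 lower genes and a plexus median of 2.01, and in the genotype comparisons 199, 0 and 4 calls by limma, the 0 beside 1877 genes at an unadjusted p under 0.05. In Dp16/D-KO against Dp16, calls numbered 13 with the class, 13 with log2 Ttr, 12 with the plexus score, 7 with all genes kept and 89 without WT F1 and M3. In Dp16 against WT they numbered 96 without both. Leaving out 1 library gave 116 to 274 calls in Dp16 against WT, 0 to 26 in Dp16/D-KO against Dp16 and 0 to 7 in Dp16;D-KO/K-KO against Dp16. In rich libraries alone, chosen after seeing the data, the counts by limma were 42, 0 and 0, with fewer libraries in the fit and 512 and 797 genes at an unadjusted p under 0.05 in the last 2. Kcne2 in Dp16 against WT turned from -0.14 to 1.70 with the class, 0.50 with log2 Ttr, 0.25 with the plexus score and 2.08 in rich libraries alone, and 1 library left out gave -1.51 to 0.41. Clic6 turned to -0.57 without WT F1 and M3 and ran from -0.43 to 1.16 with 1 library left out. Relative to the plexus score, Kcne2 lost its call in batch 1 (0.89) and batch 2 (0.57) alone and Clic6 in batch 1 (0.78), where fewer libraries were tested. The difference ran from 0.53 to 0.87 for Kcne2 and from 0.58 to 0.87 for Clic6 with 1 library left out. The cause of these changes was not tested. The number of reads behind each value is not known, so levels near 0 carry no stated error.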
